A study of Mus musculus with 7 samples.

Results

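The 60 genes described here encode the machinery that carries a cell through DNA replication and mitosis, from the cyclins and cyclin-dependent kinases (CDKs) to the kinesins of the mitotic spindle. They were chosen by name and not by a measured value, but with earlier results of these data known. All 60 symbols were found in the mouse RefSeq annotation. Of the 60 genes, 18 had at least 1 m6A peak in the table deposited for injured muscle, 21 had at least 1 in the table deposited for C2C12 myoblasts, and 8 were in both. Of the 5412 peaks listed for muscle 28 belonged to these genes, as did 28 of the 5433 peaks listed for C2C12.

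The peaks came from m6A MeRIP-Seq, in which mRNA fragments bound by an antibody against N6-methyladenosine (m6A) are sequenced as the immunoprecipitate (IP) and compared with the input RNA they were taken from. For the in vivo data, METTL3 cKO mice (Pax7CreERT2; METTL3 flox/flox) gave 1 IP and 1 input library, and control (CTL) mice (Pax7CreERT2; METTL3 wt/wt) gave 1 of each. The mice were of C57BL/6 background, and the sample titles give day 2. The labels describe tamoxifen and then cardiotoxin (CTX), which injures the muscle, without setting the genotypes apart, and do not say whether animals were pooled. With no expression values, the loss of Mettl3 could not be checked. Pax7CreERT2 deletes METTL3, the m6A methyltransferase, in Pax7-expressing muscle stem cells, whereas the labels give both muscle as the source and muscle stem cell as the cell type. For C2C12, a mouse myoblast line, 2 IP libraries and 1 input library were made. The labels call both of these IP libraries knockout and the input normal, and they describe growth medium followed by 3 days in 2% horse serum without saying at which stage RNA was taken. Ages are not given in the sources used here. Neither table gave read counts or values for single libraries, so the depth is unknown and no replicate error could be given. The muscle table was made for the comparison of the genotypes, so a gene missing from it may still have carried m6A. Its columns on that comparison were not used, and the values below describe each peak across the libraries, not the genotypes.

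In a dividing cell, D-type cyclins with CDK4 and CDK6 phosphorylate the retinoblastoma protein, which releases E2F transcription factors and starts a wave of gene expression for S phase. Cyclin E and cyclin A with CDK2 then drive replication, and cyclin B with CDK1 drives entry into mitosis, where Polo-like and Aurora kinases, centromere proteins and kinesins build the spindle and separate the chromosomes. In muscle, satellite cells rest outside the cycle until injury, then divide as myoblasts, and they leave the cycle again to form fibres. The m6A mark sits mostly within a short consensus that contains GGAC, often near the stop codon, and it is known to affect the stability and translation of the mRNA that carries it.

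In muscle, 18 of 60 cell cycle genes (30%) were listed, where 16.9% of the 21900 protein-coding genes in RefSeq were. In C2C12, 21 of 60 (35.0%) were listed, against 17.6% of all protein-coding genes. Both tables held 8 of 60 (13.3%), against 7.32% of protein-coding genes. These shares include genes that the samples may not express, since no expression values were used, and a gene without transcripts cannot be told apart from a gene without m6A. The 8 shared genes were 44.4% of the 18 genes in the muscle table and 38.1% of the 21 in the C2C12 table. For all protein-coding genes the same shares were 43.2% and 41.4%.

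Cell cycle genes of every role were listed in at least 1 table. All 3 G1 and S phase kinases in the muscle table (Cdk2, Cdk4 and Cdk6) were absent from the C2C12 table, which listed none of the 4 CDKs. Cdk4 is counted by its listed name, although its peak lay past the end of the gene. Of all protein-coding genes in the muscle table, 43.2% were also in the C2C12 table. The separase gene Espl1 and the gene of the APC/C activator Cdc20 were in the C2C12 table only. Neither table held a peak for 29 of the 60 genes (48.3%). Most protein-coding genes were also in neither, since muscle listed 16.9% of them and C2C12 17.6%. These were Top2a, Ccnb1, Ccnb2, Ccnd3, Ccne1, Ccne2, Ccnf, Cdk1, Cdkn1c, Cdc25a, Cdc25b, Cdc25c, Rbl1, E2f2, E2f7, Mybl2, Plk1, Aurka, Bub1, Bub1b, Ttk, Kif4, Kif11, Kif20a, Kif23, Anln, Ect2, Prc1 and Mcm2. The B-type cyclins, Cdk1, Plk1 and Aurka, which drive entry into mitosis, were among the genes without a listed peak. Aurkb and Foxm1, also genes of G2 and mitosis, did have a peak in C2C12, and no pattern by role was tested.

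**Figure D1:**
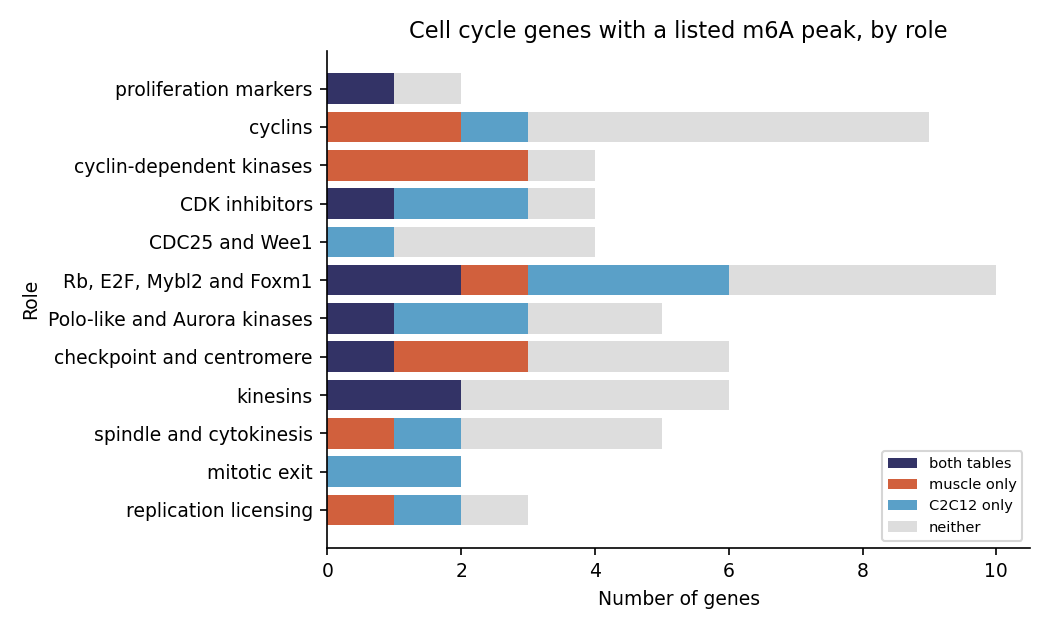
The bars count the 60 cell cycle genes by role (vertical axis), split into genes with a peak in both tables, in muscle only, in C2C12 only, or in neither. The CDKs are listed in muscle only (3 of 4), both mitotic exit genes in C2C12 only (2 of 2), and 29 genes in neither. The count of CDKs includes Cdk4, whose listed peak lies past the end of the gene.

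The authors gave each muscle peak a fold enrichment, the ratio of IP over input. Across the 28 peaks of the cell cycle genes it ran from 1.44 to 372 with a median of 18.6, where all 5412 peaks ran from 1.06 to 3860 with a median of 12.9. Taking the strongest peak of each gene, the median was 33.0 over the 18 listed genes and 19.3 over all 3983 genes of the table. This difference depends on the choice of peak, since with the geometric mean over the peaks of a gene the medians were 16.7 and 15.0. Of the 18 genes, 10 reached that median of 19.3, so the listed cell cycle genes were spread through the whole range rather than gathered at its top. More than 1 peak was listed for 6 of the 18 (33.3%), against 25% of all genes.

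**Figure D2:**
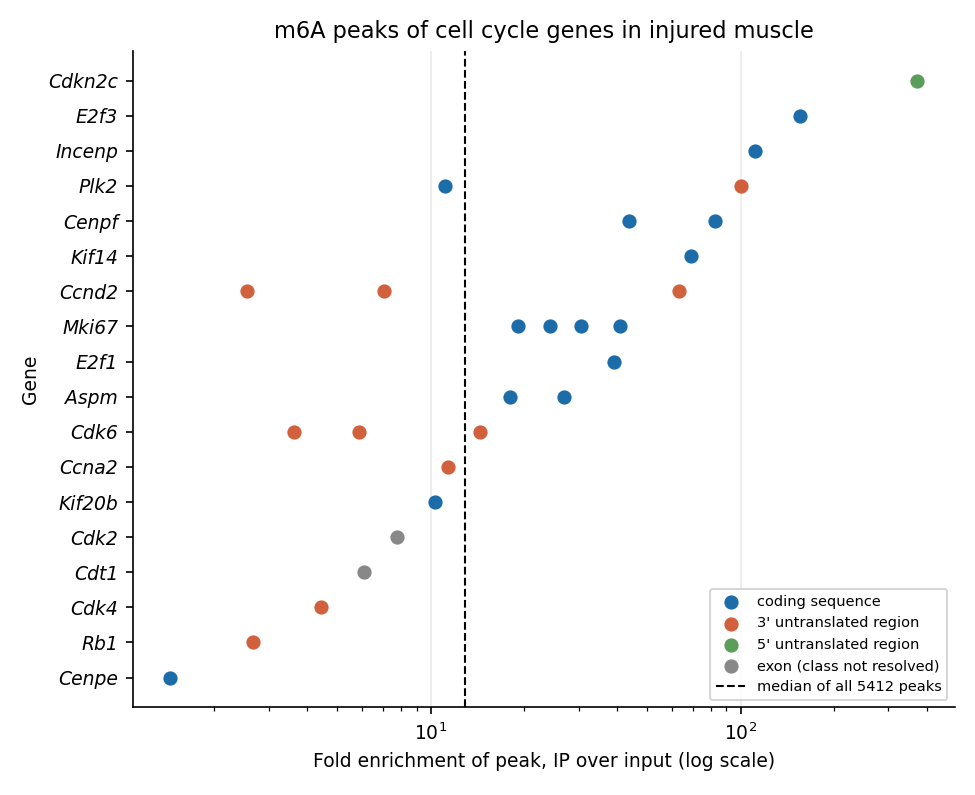
Each point is 1 m6A peak of a cell cycle gene in the muscle table, placed by its fold enrichment (IP over input, log scale) and coloured by its annotation, with genes ordered by their strongest peak. Cdkn2c is highest at 372, E2f3, Incenp and Plk2 follow at 156, 111 and 100, and Cenpe is lowest at 1.44. The dashed line is the median of all 5412 peaks, 12.9.

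The strongest peak among these genes was that of Cdkn2c, which encodes p18INK4c, an inhibitor of CDK4 and CDK6. It lay on chromosome 4 from 109665371 to 109666682 (mm10), was annotated to the 5′UTR, and had a fold enrichment of 372 with a peak p of 1.0e-138. Among the strongest peaks of the 3983 genes it had rank 192. The peak had 2 exon blocks totalling 1075 bp, and 7 GGAC sites were listed for it. In C2C12, Cdkn2c had 2 peaks covering 865 bp, which gave it rank 405 by covered length. Of the other CDK inhibitors, Cdkn1c was in neither table, and Cdkn1b and Cdkn1a were in C2C12 only. Cdkn1b, encoding p27, had a coding exon peak of 253 bp centred 621 bp from the transcription start site (TSS). Cdkn1a, encoding p21, had a peak of 210 bp that was annotated to an intron.

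The cyclin and CDK genes of the muscle table had nearly all of their peaks in the 3′UTR. Of their 9 peaks, 8 were annotated to the 3′UTR and 1 to an exon, none to the coding sequence (CDS). Their median fold enrichment was 7.05, where all 3′UTR peaks of the table had a median of 9.94. Ccnd2 and Cdk6 gave 3 of these peaks each, and the count and median include the Cdk4 peak, which lay past the end of Cdk4. Ccnd2, a D-type cyclin that partners CDK4 and CDK6, had 3 peaks in the 3′UTR. The peak nearest the TSS stood at 63.3 (chromosome 6 from 127129536 to 127130345, 810 bp, peak p 1.0e-284), and the other peaks stood at 7.05 and 2.55. A single Ccnd2 peak therefore lay above the median of all peaks. Cdk6 also had 3 peaks in the 3′UTR, at 14.4, 5.85 and 3.63, none of which had a listed GGAC site. Ccna2, the S phase and G2 cyclin, had 1 peak in the 3′UTR at 11.4, again with no listed site, and this peak overlaps the end of Exosc9. Ccnd1, the other D-type cyclin listed, was in the C2C12 table only, with a coding exon peak of 204 bp.

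Positions of the Cdk2 and Cdk4 peaks overlapped neighbouring genes. The Cdk4 peak, which stood at 4.42 and reached from 127067503 to 127067920 on chromosome 10, began 215 bp past the end of Cdk4 in RefSeq and lay inside Tspan31. The table listed a peak of Tspan31 from 127067487 to 127067932 on the opposite strand, at 3.98, so the reads behind the Cdk4 peak may belong to either gene. Without Cdk4, 17 cell cycle genes were listed in muscle. The Cdk2 peak, at 7.80, was centred 140 bp from the start of Cdk2 and lay inside the span of Pmel. Cdt1, which loads the MCM helicase at origins, had a peak at 6.07 that was annotated to an exon.

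Genes of the retinoblastoma and E2F axis differed widely from each other. E2f3, an activator E2F, had a CDS peak at 156 (rank 562 of the genes, chromosome 13 from 29909064 to 29911261, 1171 bp in 2 blocks), and it had 2 peaks in C2C12, in a coding exon and in the 3′UTR. E2f1, the founding activator E2F, had a CDS peak of 328 bp at 39.1 in muscle and a coding exon peak of 214 bp in C2C12. Rb1, the retinoblastoma gene itself, was near the bottom of the table with a peak in the 3′UTR at 2.66, which is rank 3735 of 3983. Its relative Rbl2 had a 3′UTR peak of 364 bp in C2C12 only. E2f8, an atypical E2F that represses E2F targets, and Foxm1, the transcription factor of the G2 and M genes, had coding exon peaks of 252 and 565 bp in C2C12 only. The peak of Wee1, the kinase that holds CDK1 inactive, was also in a coding exon in C2C12 only (237 bp).

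In contrast with the cyclins and CDKs, genes of the mitotic apparatus carried their muscle peaks in the CDS. All 12 peaks of the 7 listed genes (Mki67, Cenpe, Cenpf, Incenp, Kif14, Kif20b and Aspm) were annotated there, and their fold enrichment ran from 1.44 to 111 with a median of 28.8, where all CDS peaks had a median of 26.6. Each group was thus near the median of its own annotation class, and CDS peaks were more enriched than 3′UTR peaks in the whole table. This grouping of roles was made after the values were seen, and the difference between the groups was not tested. It leaves out the Polo-like and Aurora kinases, of which Plk2 had its stronger muscle peak, at 100, in the 3′UTR. Mki67 alone gave 4 of the 12 CDS peaks. In C2C12, 6 of 7 peaks of the mitotic group and the 1 peak of the cyclins and CDKs were in coding exons. With only 1 peak in the cyclin and CDK group, C2C12 cannot show whether the contrast holds there. Several genes of the mitotic group, among them Mki67, Cenpf, Cenpe and Aspm, have very long coding sequences. The length of the coding sequence was not analysed here, so its part in the difference was not tested.

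Incenp, the scaffold of the chromosomal passenger complex that holds Aurora B, had the strongest of these peaks, at 111 (chromosome 19 from 9893337 to 9893933, 597 bp, 3 GGAC sites). Cenpf, a kinetochore protein of long coiled coils, had peaks of 1199 bp at 82.6 and of 1170 bp at 43.5, with 8 and 5 GGAC sites. Kif14, a kinesin of cytokinesis, had a peak of 989 bp at 69.0 with 9 GGAC sites. Kif20b, another kinesin of cytokinesis, stood at 10.3 with a peak of 240 bp. Aspm, which focuses spindle poles, had peaks at 26.9 and 18.0, and the stronger of them had no listed GGAC site. At the other end, the kinetochore motor gene Cenpe had a peak of 151 bp at 1.44, which was rank 5380 of 5412 peaks. Nearly every other peak in the muscle table was thus more enriched than that of Cenpe.

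Mki67, which encodes the proliferation marker Ki-67, had the most peaks of these genes, with 4. They lay side by side in the CDS on chromosome 7 from 135694543 to 135701994, a stretch of 7452 bp with gaps of 298, 268 and 269 bp between peaks. One of the peaks also has a gap between its 2 blocks, and the 4 peaks cover 5783 bp in all. Their fold enrichments were 40.8, 30.6, 24.2 and 19.1, and the peak p was listed as 0 for each. For these peaks 13 GGAC sites were listed over 5783 bp, or 2.25 per kb, where all peaks of the table had 4.63 per kb. Of the 4 sites listed for the peak with 2 blocks, only 1 fell inside the blocks. The longest single-block peak of Mki67, of 2037 bp, had 1 listed site. In C2C12 the single Mki67 peak of 296 bp lay elsewhere, at 98.5% of the gene length from the TSS, whereas the muscle peaks were centred between 60.4% and 81.4% along the gene.

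Among the Polo-like and Aurora kinases, Plk2 was the only gene in the muscle table. Plk2, a stress-responsive Polo-like kinase, had a 3′UTR peak of 719 bp at 100 (chromosome 13 from 110400036 to 110400754, 7 GGAC sites) and a CDS peak of 240 bp at 11.1 with 4 sites. With 11 sites over 959 bp, or 11.5 per kb, Plk2 had the highest density of GGAC among the 18 genes. Plk4, the kinase of centriole duplication, had 2 coding exon peaks of 251 bp each in C2C12, and Aurkb had an intronic peak of 244 bp there.

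By annotation, 15 of the 28 muscle peaks (53.6%) were in the CDS and 10 (35.7%) in the 3′UTR, where the shares of all peaks were 31.9% and 48.0%. Weighted by length, 19.7% of the sequence in these peaks was in the 3′UTR. In C2C12, coding exons held 19 of the 28 peaks (67.9%) and 3′UTRs held 5 (17.9%), against 52.6% and 25.9% of all peaks. In both tables the cell cycle genes therefore had a larger share of coding peaks than the table as a whole. The tables were annotated separately, and neither difference was tested.

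**Figure D3:**
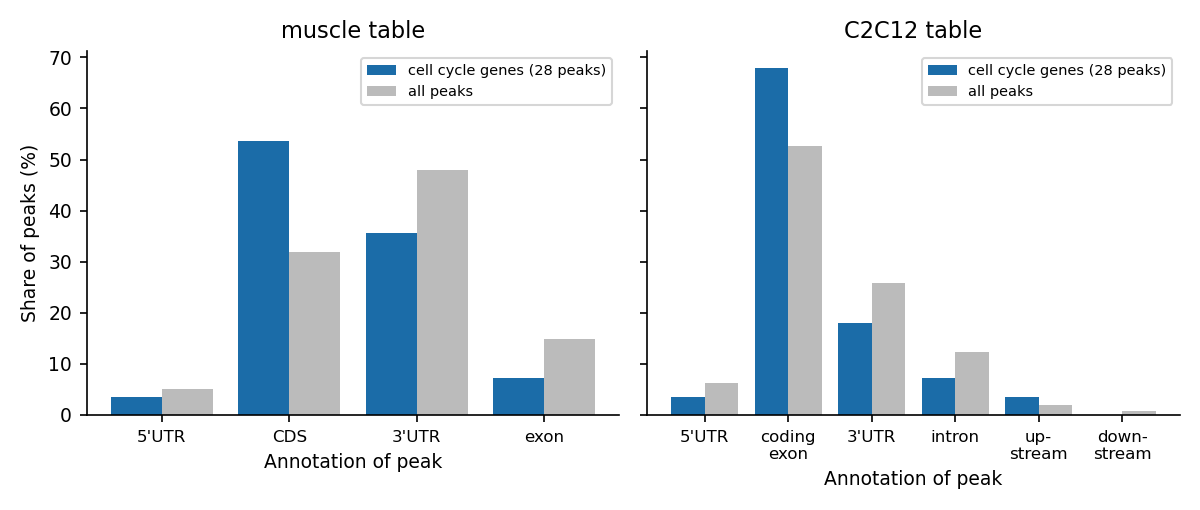
The bars give the share of peaks (%) in each annotation class for the cell cycle genes (28 peaks in each table) and for all peaks, in the muscle table on the left and the C2C12 table on the right. Coding peaks are the largest class of the cell cycle genes in both, at 53.6% and 67.9%, and exceed the shares of all peaks, 31.9% and 52.6%.

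GGAC sites were listed for 20 of the 28 muscle peaks (71.4%), and for 70.6% of all peaks. For the 28 peaks 75 sites were listed, or 4.28 per kb, against 4.63 per kb in all peaks. Within CDS peaks, 13 of 15 had a listed site (86.7%, all CDS peaks 84.5%), and within 3′UTR peaks 5 of 10 (50%, all 3′UTR peaks 62.0%). The 8 peaks without a site were at most 420 bp long, and 4 genes (Ccna2, Cdk6, Cdt1 and Cenpe) had no site in any peak. For peaks that span an intron, the listed site positions did not always fall inside the peak. In the 25 single-block peaks all 58 positions did, but in the 3 peaks with 2 blocks (Cdkn2c, E2f3 and Mki67) only 6 of 17 did, so the number of sites is given for those peaks and not their places.

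**Figure D4:**
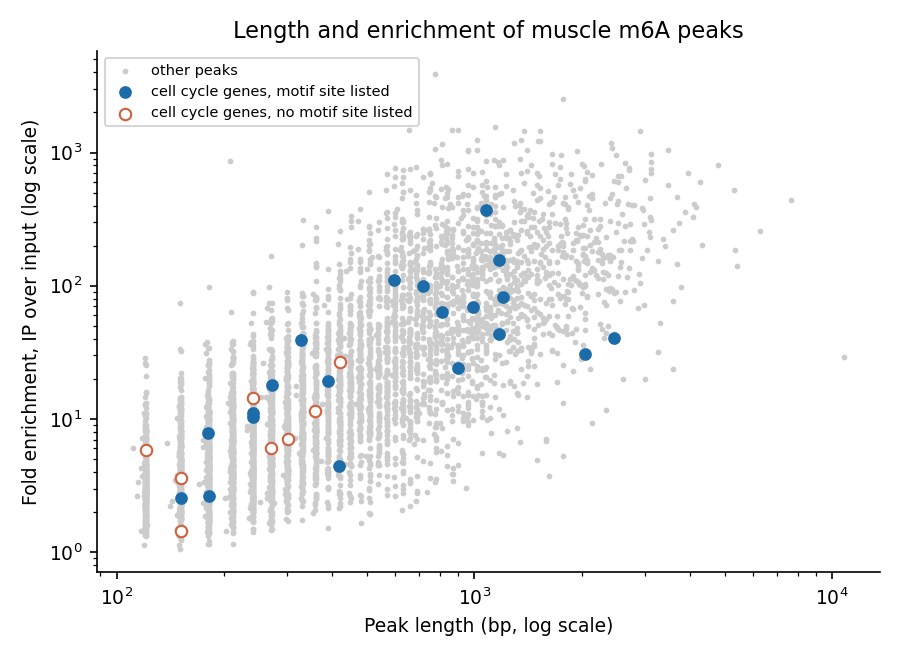
Each grey point is 1 of the other peaks of the muscle table, placed by its length (bp) and fold enrichment (both log scales), and the larger points are the 28 peaks of the cell cycle genes. Peaks without a listed GGAC site (open circles, 8 peaks) are at most 420 bp long and at most 26.9-fold enriched, and the 20 with a site (filled) extend to 2456 bp and to a fold enrichment of 372.

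The C2C12 table gave positions but no enrichment, so covered length was used to order the genes. The 28 peaks had a median length of 248 bp, where all C2C12 peaks had 285 bp. Kif14 ranked highest, with 2 coding exon peaks covering 1074 bp (rank 236 of 3970 genes). Cdkn2c followed with 865 bp, Incenp with 814 bp and Espl1 with 782 bp. Espl1, which encodes the protease that cleaves cohesin at anaphase, had 3 coding exon peaks and was the only one of these genes with 3 or more. The shortest were Cdc20 with a peak of 200 bp in the 5′UTR and Tpx2, a spindle assembly factor, with 203 bp in the 3′UTR. Mcm10, a replication initiation factor, had a 3′UTR peak of 246 bp, close to the median of these genes. Counting only peaks of at least 285 bp, 8 of 60 genes (13.3%) were listed, against 10% of protein-coding genes.

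The muscle positions were on mm10 (27 of 28 peaks lay inside the GRCm38 span of their gene), but none of the 28 C2C12 peaks did, so the latter are on another build and were compared by their distance from the TSS. Of the 8 genes in both tables, 6 had a muscle and a C2C12 peak that overlapped when placed this way from a RefSeq start (75%), and 981 of 1602 protein-coding genes did (61.2%). For every gene all RefSeq starts were tried and the closest pair was kept, which favours overlap, and muscle spans included introns. From the outermost start the muscle centres were at 2284 bp in Kif14 and 730 bp in Cdkn2c, against 585 and -1021 bp in C2C12. The overlaps of Kif14 and Cdkn2c thus rest on the choice of start. Centres differed by 21 bp in Plk2 (5351 bp in muscle, 5330 bp in C2C12), by 30 bp in Incenp, by 60 bp in E2f1, by 148 bp in E2f3 and by 152 bp in Kif14. In Cdkn2c they differed by 366 bp. The peak annotated to the 5′UTR in muscle and the one annotated as upstream in C2C12 overlapped before the downstream start of this gene, which has a further start upstream. The centres of the Kif20b peaks were 920 bp apart and those of the closest Mki67 pair 4564 bp apart, and neither pair overlapped. Lengths of introns can differ between builds, so small differences in distance have no meaning here.

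**Figure D5:**
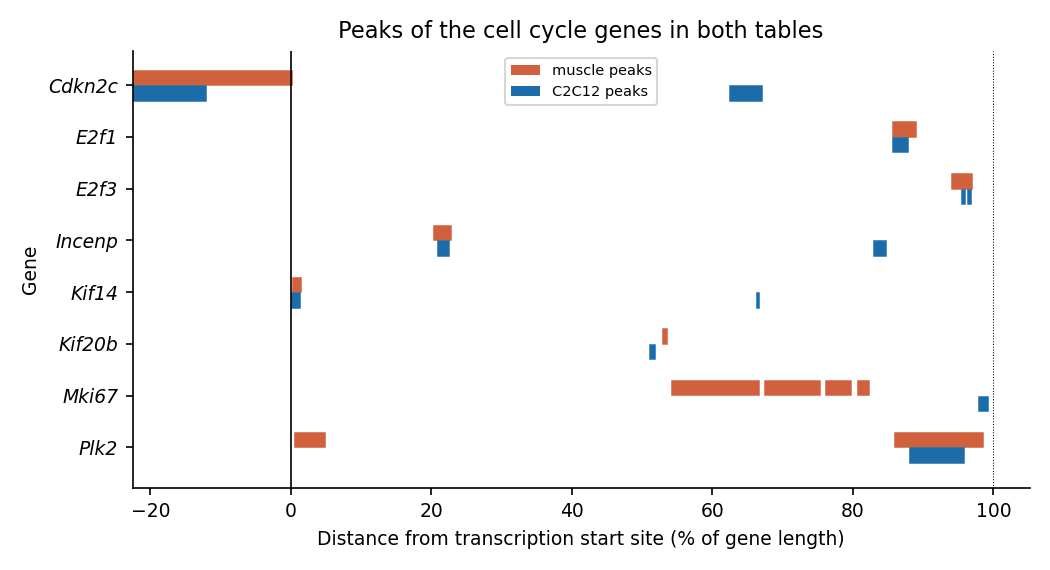
The bars show where the peaks of the 8 genes in both tables lie, as distance from a transcription start site in % of the gene length, with muscle peaks above and C2C12 peaks below for each gene. The start that brings the peaks closest was used for each gene. Peaks of 6 genes overlap, while the centres of the Kif20b peaks are 920 bp apart. The C2C12 peak of Mki67 lies at 98.5%, beyond all 4 muscle peaks.

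Peaks of Plk2, Cdkn2c and Cdc20 reached into a RefSeq promoter window, and short stretches are printed to show the sequence at the edge of the peak or around the start (RefSeq, GRCm38.p6, read 5′ to 3′ along the gene). In Plk2 (chr13:110395064-110395093, plus strand) the capitals mark the 18 bases that fall inside the muscle CDS peak. In Cdkn2c (chr4:109665593-109665622, minus strand, from 250 bases before the downstream start) they mark the 13 bases inside a block of the 5′UTR peak, and the gap between its 2 blocks begins after them. The C2C12 peak of Cdc20 was centred 63 bp from the TSS and reached from 37 bp before it to 163 bp after it. For this gene the stretch from 100 bases before to 30 bases after the start is shown (chr4:118437314-118437443, minus strand), with the words of known cell cycle promoter motifs in capitals.
Plk2: acgtcagactagAGAGTAGGGAGAGAGACT
Cdkn2c: ACTGTGAACAAGGgtgggttaatacctttt
Cdc20: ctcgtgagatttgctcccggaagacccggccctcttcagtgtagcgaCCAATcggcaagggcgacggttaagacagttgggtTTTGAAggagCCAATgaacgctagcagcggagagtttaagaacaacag

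The capitals in Cdc20 are a CHR word (TTTGAA, 18 to 13 bases before the start) and a pair of CCAAT boxes. The CHR (cell cycle genes homology region) is the element through which DREAM and MuvB complexes are known to hold late cell cycle genes silent in resting cells and to activate them in G2 and M phase, often together with CCAAT boxes bound by NF-Y. RefSeq promoter windows (250 bases before to 50 after a start) were at hand for 47 of the 60 genes. A CHR word (TTTGAA or TTCGAA, either strand) was found in 28 of the 47 (59.6%) and in 20.2% of 17492 protein-coding genes. CCAAT, on either strand, was found in 34 (72.3%) and in 42.3% of all genes. An E2F word (TTTCCCGC, TTTCGCGC, TTTGCCGC or TTTGGCGC, either strand) was found in 8 (17.0%) and in 3.29% of all genes. Of the 22 genes with a window that had a peak in either table, 10 held a CHR word, and of the 25 without a peak 18 did. This split was not tested, and it leaves out 13 genes without a window. Most of these had a listed peak (Ccna2, Ccnd1, Ccnd2, Rb1, Foxm1, Aurkb, Incenp, Tpx2 and Wee1), and Ccne2, Cdkn1c, Kif20a and Cdc25c did not. A match of letters is not a bound site, and the m6A peaks are on the mRNA and not on these promoters.

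Of 104 other cell cycle genes in 9 lists, 21 (20.2%) were in the muscle table and 27 (26%) in the C2C12 table, with 7 in both (6.73%). The shares over all protein-coding genes were 16.9%, 17.6% and 7.32%, so the share in muscle and the share in both were near those of all genes. The lists are small, and none was tested. Cohesin genes had the largest share in muscle, with 5 of 10. The loader gene Nipbl stood at a fold enrichment of 143, and the release factor gene Wapl had 3 peaks, the strongest at 25.5. The strongest peak of Pds5a stood at 25.2, while Rad21 and Smc1a were weak, at 4.73 and 1.82. Genes of the anaphase-promoting complex (APC/C) and its activator had 4 of 14 in muscle and 6 of 14 in C2C12, and the activator gene Fzr1 was in both, at 68.3 in muscle. Of the kinetochore genes 4 of 14 were in muscle, with Cenpb, which binds centromeric repeats, highest at 135 with 11 GGAC sites, and 3 of 14 were in C2C12. Of 21 MCM and origin genes, 4 were in muscle at weak to moderate enrichment (Orc2 31.5, Mcm4 8.15, Orc6 5.89 and Mcm5 5.20) and 7 in C2C12. Haspin, the histone kinase gene, was the only 1 of 7 passenger and mitotic kinase genes in muscle (80.7), and Birc5, the survivin gene, the only one in C2C12. Of 8 condensin genes, Ncaph2 was in both tables and stood at 117 in muscle. None of 7 SCF ubiquitin ligase genes was in muscle and 3 were in C2C12, and of 6 further kinesins only Kifc1 was listed, with 3 C2C12 peaks. Of 17 further G1 and DREAM genes, Tfdp1 (3.18) and Ccng1 (2.04) were in muscle, and Myc and Cdkn2d were in C2C12.

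Muscle at day 2 after injury holds several kinds of dividing cell, and fewer cells of a type cannot be told apart from less RNA or less m6A per cell. The muscle table listed 4 of 5 myoblast markers (Pax7, Myod1, Myog and Des), 1 of 7 fibre markers (Ttn), 3 of 7 leukocyte markers (Ptprc, Itgam and Cd14), 1 of 4 endothelial markers (Cdh5) and 2 of 6 fibroblast markers (Pdgfra and Col1a1). The C2C12 table listed 3, 0, 1, 0 and 5 of the same lists. Over all 29 markers the shares were 37.9% in muscle and 31.0% in C2C12, against 16.9% and 17.6% of all protein-coding genes. C2C12 is a myoblast line, yet its table listed Cd14 and 5 fibroblast markers, so a listed marker does not identify a cell type. The cells in which the cell cycle mRNAs of the muscle table were methylated are not known from it, and the part of each cell type was not tested.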

How the data were processed

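m6A peaks were taken from the 2 tables that the authors deposited, 1 for day 2 muscle and 1 for C2C12. The submitters' processing notes name TopHat, MACS2 and mm10, whereas the muscle columns are named as in the R package exomePeak. For each muscle peak the authors deposited a fold enrichment (a ratio of IP over input), a p-value and a number of GGAC sites. The p-value is listed as 0 for 7 of the 28 peaks. Further columns hold the authors' own comparison of the genotypes (fold, p and FDR) and were not used. The C2C12 table deposited positions and annotation only, and 0 columns of single samples were left out. Depth is unknown.

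Genes were matched to RefSeq (GRCm38.p6) by symbol, or by an older symbol naming a single gene (3811 of 3983 muscle genes), and C2C12 genes also by transcript (3967 of 3970). No older symbol added a member. The most enriched peak stood for its gene. With 1 library of each kind per genotype no test was made. Counts and medians stand beside those of all genes or peaks. The members and lists were chosen with earlier results of these data known. Every member was to be accounted for by role. Where a member had a peak its values were named, and members in neither table were named only. Alternatives covered filters, annotation, the choice of peak and the overlap between tables. Python 3.11.15, pandas 2.3.3, numpy 2.4.6, scipy 1.17.1 and matplotlib 3.10.9 were used, and the summary steps were tested on simulated data. The only sequence used was that of RefSeq promoter windows.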

Additional observations from a re-analysis of the deposited data

How the results depend on the processing

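Most values moved little. In 21 of 25 alternative settings a count or level stayed within 1.5 times of the value given, or a share within its 95% Wilson interval, which covers counting error only. With peaks of at least the median length, 8 genes were listed in C2C12 in place of 21, since this filter drops shorter peaks. The median fold enrichment of the 18 muscle genes fell from 33.0 to 16.7 when the geometric mean over a gene's peaks replaced its strongest peak, and that of all genes from 19.3 to 15.0. The share of cell cycle peaks with a GGAC site was 87.5% among those no weaker than the median of the table, in place of 71.4%. The share of all peaks under this filter is not given here. The 3′UTR share was 19.7% by length in place of 35.7%. Overlap by distance from a start site, and leaving out Cdk4, were chosen after seeing the data. GGAC and DRACH sites in the genome sequence were not run, as the sequence used here covers promoter windows and not the peaks. No paired analysis was possible because each genotype has 1 library of each kind and no value is given for a single library. The depth is not known.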
